A study of Mus musculus with 12 samples.

Results

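The cytochrome P450 enzymes are heme proteins that oxidize drugs, steroids, fatty acids, retinoids and other lipids. In the liver most of them sit in the endoplasmic reticulum of hepatocytes, where NADPH-cytochrome P450 oxidoreductase (Por) and cytochrome b5 feed them electrons. Families 1 to 3 act mainly on foreign compounds and steroids and are switched by nuclear receptors and related sensors (Ahr for Cyp1a, Nr1i3 for Cyp2b, Nr1i2 for Cyp3a), while the Cyp4 enzymes oxidize the end of fatty acid chains and several of them are targets of Ppara. Inflammation is known to lower many hepatic P450s, and many mouse P450s differ between the sexes under the pattern of growth hormone release. The members described here were the genes of the table whose symbol is Cyp followed by a number, without the 5 enzymes of bile acid and cholesterol synthesis Cyp7a1, Cyp7b1, Cyp8b1, Cyp27a1 and Cyp51. That left 61 genes of 66 P450s and of 11289 genes in all. They were grouped by subfamily into 4 Cyp2a, 3 Cyp2b, 13 Cyp2c, 6 Cyp2d, 8 Cyp3a and 5 Cyp4a genes and 22 others.

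Liver RNA was sequenced from 12 C57BL/6J mice aged 8 to 10 weeks by the labels, with 4 mice in each of 3 groups. The control group was free of Con A, and the labels do not say what it was injected with. Both other groups received concanavalin A (Con A), a lectin of jack beans that stimulates T cells and causes an acute hepatitis, in 1 dose of 15 mg/kg into the tail vein. After 30 min they received PBS (Con A + PBS) or human umbilical cord (Wharton's jelly) mesenchymal stem cells (Con A + hWJ-MSCs) into a vein, so the cells were human and the recipients were mice with an intact immune system. Livers were taken at 24 h. The labels and the study's methods differ in the age of the mice and in the number of cells, and the methods call the mice male while the labels give no sex.

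The deposited values are whole-number scores that had been normalized between mice, not counts. The first 8024 ranks hold the same scores in every mouse, and 10 genes share the largest score of 341028 in each, so depth is unknown, no counting error can be given and the highest genes move in steps. Scores were not divided by transcript length, so levels are compared within a gene and not between genes. A gene was called higher or lower when limma on log2(score + 1) gave a Benjamini-Hochberg adjusted p below 0.05 over all 11289 genes and a fold change above 1.5. Errors of fold changes below are standard errors of that fit, with 4 mice a group, and p-values measure the spread between these mice. Xist, the RNA of the inactive X chromosome that marks female cells, scored between 10956 and 29687 in all 12 mice, although the methods call them male. The Y-linked Kdm5d, which has a close X-linked copy, scored between 202 and 341. Con A + PBS 4 stood apart from its group, being alone lowest in 29 and alone highest in 19 of the 61 P450s. Con A + hWJ-MSCs 2 was alone highest in 32, and Con A + hWJ-MSCs 4 alone lowest in 33.

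After Con A most P450s fell. Between the Con A + PBS and control mice 42 of the 61 were called lower, 4 higher and 15 neither, while 19.2% of all genes were called lower and 19.5% higher. The median log2 fold change of the members was -1.80, beside 0.05 over all genes. The fall was over 4-fold in 28 members and over 16-fold in 9. In 49 of the members the 4 Con A + PBS mice did not overlap the 4 controls, which is 80.3% of them, beside 50.4% of all genes. The table holds only genes that reach a score of 64 in 2 mice. Cyp2c55, Cyp2g1 and Cyp26b1 did so through the controls alone, and Cyp4a12a through the mice given Con A alone, so these 4 were measured only because of that side. Cyp26b1 among them overlapped between control and Con A + PBS (-0.10 ± 0.46, limma, adjusted p = 0.871). The 49 without overlap include Cyp2c55, Cyp2g1 and Cyp4a12a. The 28 with falls over 4-fold include Cyp2c55 and Cyp2g1, and the 9 with falls over 16-fold include Cyp2c55. Without the 4 genes 40 members were lower and 3 higher. Without Con A + PBS 4 the counts were 41 lower and 6 higher. In bulk liver, fewer hepatocytes and less P450 RNA in each hepatocyte cannot be told apart.

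**Figure D1:**
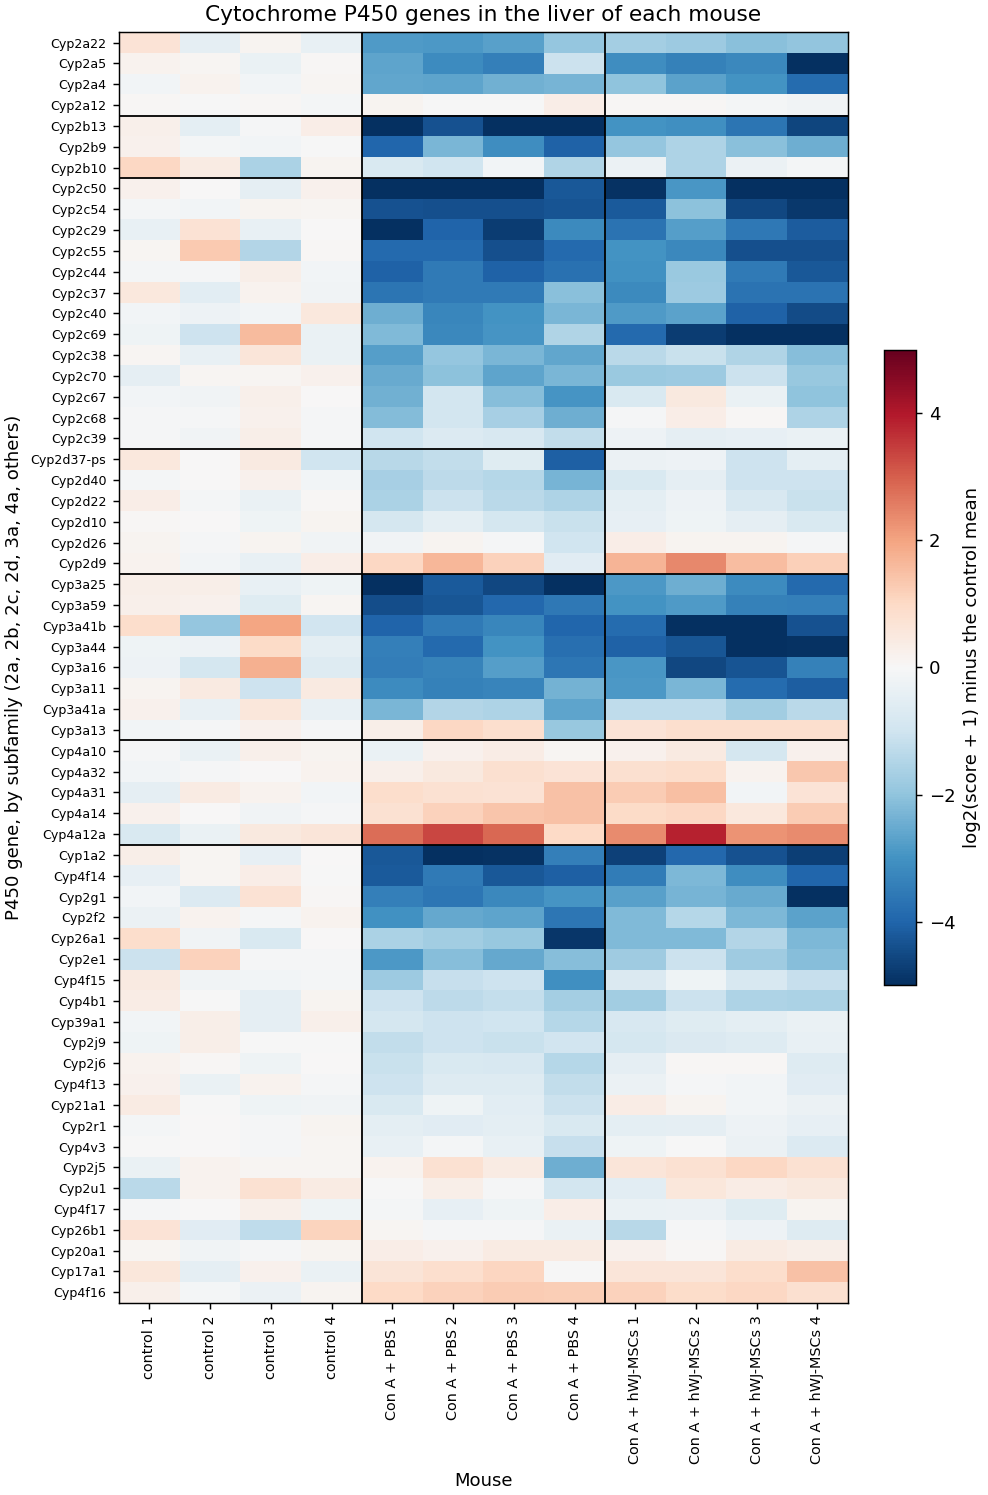
Each row is 1 of the 61 P450 genes, grouped by subfamily, and each column is 1 mouse. Color gives log2(score + 1) minus the mean of the 4 control mice, from blue (lower) to red (higher), and values beyond 5 are drawn at 5. All 13 Cyp2c genes are blue in the 4 Con A + PBS mice, and the Cyp4a rows are pale or red.

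Cell markers moved in the same samples, and their part in the P450 changes was not tested. Of all genes 19.2% were called lower and 19.5% higher after Con A, and 4.38% lower and 4.20% higher between the Con A groups. Of 10 hepatocyte markers 5 were called lower and 0 higher, with a summed score of 830722 to 1134897 in control and 678820 to 729712 in Con A + PBS. Albumin and Cps1, a urea cycle enzyme, each had 1 score in all 12 mice, on the top steps of the scale. Neither fell below its step, and a smaller change would not show. Without them the sums were 341734 to 645909 in control and 189832 to 240724 in Con A + PBS, where the highest control sum is that of control 1, with 341028 of it from transthyretin (Ttr). Of 7 markers of pericentral hepatocytes, where many P450s are made, 6 were lower (20908 to 23844 in control and 7545 to 9023 in Con A + PBS), and of 6 periportal markers 4 were lower (66485 to 150868 and 30032 to 45738). Of the 6 lowered pericentral markers 1, Lgr5, is in the table through its control scores alone. Of 9 leukocyte markers 8 were higher and 1 lower (1202 to 1698 and 2760 to 4221), of which 5 reach 64 in the mice given Con A alone. Between the Con A groups 0 of the pericentral, periportal and leukocyte markers were called in either direction (limma, 1 lower and 3 higher at an unadjusted p below 0.05 and whatever fold change), and 1 hepatocyte marker was higher. Of the Kupffer, stellate and cholangiocyte markers 0 were called there (limma, 2 lower and 2 higher at an unadjusted p below 0.05). Of 5 endothelial markers 3 were called. Stab2, a scavenger receptor of sinusoidal endothelium, was higher with cells, at 681, 696, 761 and 682 against 458, 496, 508 and 412 (limma, adjusted p = 0.0199). Lyve1, a hyaluronan receptor, was lower, at 139, 118, 105 and 108 against 223, 252, 207 and 196 (limma, adjusted p = 0.0224). Cdh5, the cadherin of endothelial junctions, was also lower, at 186, 196, 146 and 125 against 270, 320, 222 and 216 (limma, adjusted p = 0.0443). So the endothelial markers moved in both directions between the Con A groups. In each of the 3 those groups did not overlap, as in 23.5% of all genes. Over all genes the calls there numbered 495 lower and 474 higher. They fell to 2 to 10 and 4 to 8 in fits without Con A + PBS 1, Con A + hWJ-MSCs 2 or Con A + hWJ-MSCs 3.

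The 4 members with the highest control scores, which transcript length may set in part, were all called lower. Cyp2e1, which oxidizes ethanol and acetaminophen, had scores of 72892, 341028, 148316 and 148316 in the control mice. It had 21000, 34530, 25900 and 34530 in the Con A + PBS mice, and 44970, 72892, 44970 and 34530 in the Con A + hWJ-MSCs mice. The control scores lie among the top ranks, where 10 genes share each value and the first steps are over 2-fold, yet control and Con A + PBS did not overlap. The log2 fold change after Con A was -2.43 ± 0.39 (limma, Benjamini-Hochberg adjusted p = 0.00023). Cyp3a11, the main drug-oxidizing Cyp3a enzyme of mouse liver, scored 58152, 72750, 25819 and 72750 in control, 6040, 5040, 5393 and 10356 in Con A + PBS, and 7348, 10956, 3698 and 3087 in Con A + hWJ-MSCs. Both Con A groups lay below every control (-3.05 ± 0.43 after Con A by limma, adjusted p = 8.6e-05) and overlapped each other. Cyp2c29 went from 34419, 72783, 34419 and 44696 to 1344, 2792, 1672 and 4938, with 3406, 6546, 3751 and 2474 in the mice given cells. Its fold change after Con A was -4.23 ± 0.40 on the log2 scale (limma, adjusted p = 5.1e-06). Cyp3a41a, a female-biased enzyme, scored 44612, 29687, 58152 and 29687 in control against 7954, 13948, 13230 and 6321 in Con A + PBS (-1.99 ± 0.28, limma, adjusted p = 9.8e-05). It shares 82.9% of its 150-base windows with another transcript, so its reads may be split with Cyp3a41b.

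The Cyp2c genes, many of which are epoxygenases of arachidonic and linoleic acid, fell together. Of the 13 measured, 13 were called lower after Con A, Cyp2c55 among them only because its controls carried it into the table, with log2 fold changes from -5.02 to -0.93 and a median of -2.75. The largest fall was that of Cyp2c50, from 29712, 25838, 18948 and 29712 in control to 692, 634, 637 and 1371 in Con A + PBS. That was a 32.5-fold lower level (limma, Benjamini-Hochberg adjusted p = 4.1e-06). With cells, 3 mice stayed at 842, 660 and 598 and Con A + hWJ-MSCs 2 reached 3452. Cyp2c39 had the smallest fall of the subfamily, to 1.90-fold below control.

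Of the 8 Cyp3a genes 7 were lower, with Cyp3a25 the furthest at -4.74 ± 0.30. It scored 13247, 13247, 8246 and 9424 in control and 322, 582, 458 and 310 in Con A + PBS (limma, adjusted p = 2.5e-07). The remaining gene, Cyp3a13, gave 0.07 ± 0.48 (limma, adjusted p = 0.914). It lies apart from the others, starting at 137892932 on chromosome 5, while the 7 lowered genes lie together between 145.4 and 146.1 Mb. The 12 Cyp2c genes between 39.0 and 40.2 Mb of chromosome 19 likewise all fell, 11 of them without Cyp2c55, which is in the table through its control scores alone. A cluster was not always uniform. Between 25.9 and 27.1 Mb of chromosome 7, 7 of 9 neighboring Cyp2a, Cyp2b, Cyp2f and Cyp2g genes fell, or 6 of 8 without Cyp2g1, which is in the table through its control scores alone. Cyp2a12 among them scored 9922 to 11024 in control and 10414 to 13327 in Con A + PBS (0.11 ± 0.12, limma, adjusted p = 0.454). Over the 7 clusters of 3 or more members with gaps of at most 1 Mb, 36 of 48 members were lower, beside 6 of the 13 members outside them. Without the 4 members that entered the table through 1 side alone these were 34 of 45 and 6 of 12, and the difference was not tested. Positions are those of the authors' file, in the coordinates of mm10.

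Some promoters of the Cyp2c and Cyp3a clusters hold the same motif, and these stretches are shown so that the lowered neighbors can be compared base by base. RefSeq promoters of GRCm38.p6, from 250 bases before to 50 after the start, were found for 47 of the 61 members. The letters CAAAGTCCA, a binding sequence of the hepatocyte factor HNF4, were searched on both strands, and no motif searched contains another. They occurred in 9 member promoters (19.1%) and in 0.624% of the 8494 promoters of the table's genes. All 9 belong to genes called lower after Con A, of 35 lowered members with a promoter, and only 1 raised member had a promoter. The 9 are 5 of the 11 Cyp2c cluster genes and 4 of the 7 Cyp3a cluster genes with a promoter. Every member of these clusters was called lower, so any match within them falls on a lowered gene. Of the 9 members that fell over 16-fold 8 had a promoter and 0 held the letters, among them Cyp2c29, Cyp2c50, Cyp3a25 and Cyp3a59. These 8 include Cyp2c55, which the table's filter let in only as a gene higher in control. Neighboring genes of a cluster are copies of each other, so these are not 9 independent occurrences. The match stands between 45 and 125 bases before the annotated start, in the same direction as the gene. Each window below runs 5′ to 3′ on the minus strand and has the match in capitals with 26 bases on either side.
Cyp2c40 (chr19:39812825-39812885): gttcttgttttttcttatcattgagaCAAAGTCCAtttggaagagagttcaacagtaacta
Cyp2c69 (chr19:39886810-39886870): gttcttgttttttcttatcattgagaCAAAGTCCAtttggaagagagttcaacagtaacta
Cyp2c67 (chr19:39649133-39649193): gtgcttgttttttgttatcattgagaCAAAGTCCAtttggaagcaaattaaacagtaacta
Cyp2c68 (chr19:39741144-39741204): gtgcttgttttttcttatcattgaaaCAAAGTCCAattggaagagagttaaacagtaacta
Cyp2c70 (chr19:40187316-40187376): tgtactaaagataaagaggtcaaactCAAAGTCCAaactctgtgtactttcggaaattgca
Cyp3a11 (chr5:145879929-145879989): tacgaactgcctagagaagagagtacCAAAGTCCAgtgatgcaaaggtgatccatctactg
Cyp3a16 (chr5:145469788-145469848): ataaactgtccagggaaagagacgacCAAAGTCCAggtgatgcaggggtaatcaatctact
Cyp3a41a (chr5:145720197-145720257): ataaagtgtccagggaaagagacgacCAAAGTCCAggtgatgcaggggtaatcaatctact
Cyp3a41b (chr5:145584791-145584851): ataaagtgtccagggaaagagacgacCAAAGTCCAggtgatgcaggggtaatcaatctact

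The windows of Cyp2c40 and Cyp2c69 are identical in all 61 bases, as are those of Cyp3a41a and Cyp3a41b, while Cyp2c70 stands apart within its cluster. Cyp2c40 had 2554, 2830, 1079 and 811 in Con A + hWJ-MSCs against 3273, 1858, 2291 and 3701 in Con A + PBS, a difference that was not called (-0.76 ± 0.38, limma, adjusted p = 0.173). Cyp2c69 was called lower, as given further on, and the difference between the 2 genes was not tested. Cyp2c40 shares 25.1% of its 150-base windows with Cyp2c69 and Cyp2c69 22.5% with Cyp2c40, so their reads may be split between them. Hnf4a itself, the gene of the factor, was not called in any comparison (0.23 ± 0.22 after Con A, limma, adjusted p = 0.397). Of the other motifs, GTTAAT (HNF1) was in 17.0% of member promoters and 5.93% of all, TTGCNNAA (C/EBP) in 27.7% and 10.7%, AGGTCA in 29.8% and 15.4% and AGTTCA in 23.4% and 12.2% (both nuclear receptor core sequences), and GCGTG (the dioxin response core) in 17.0% and 55.9%. A match is a string of letters and says nothing of binding in these livers.

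**Figure D2:**
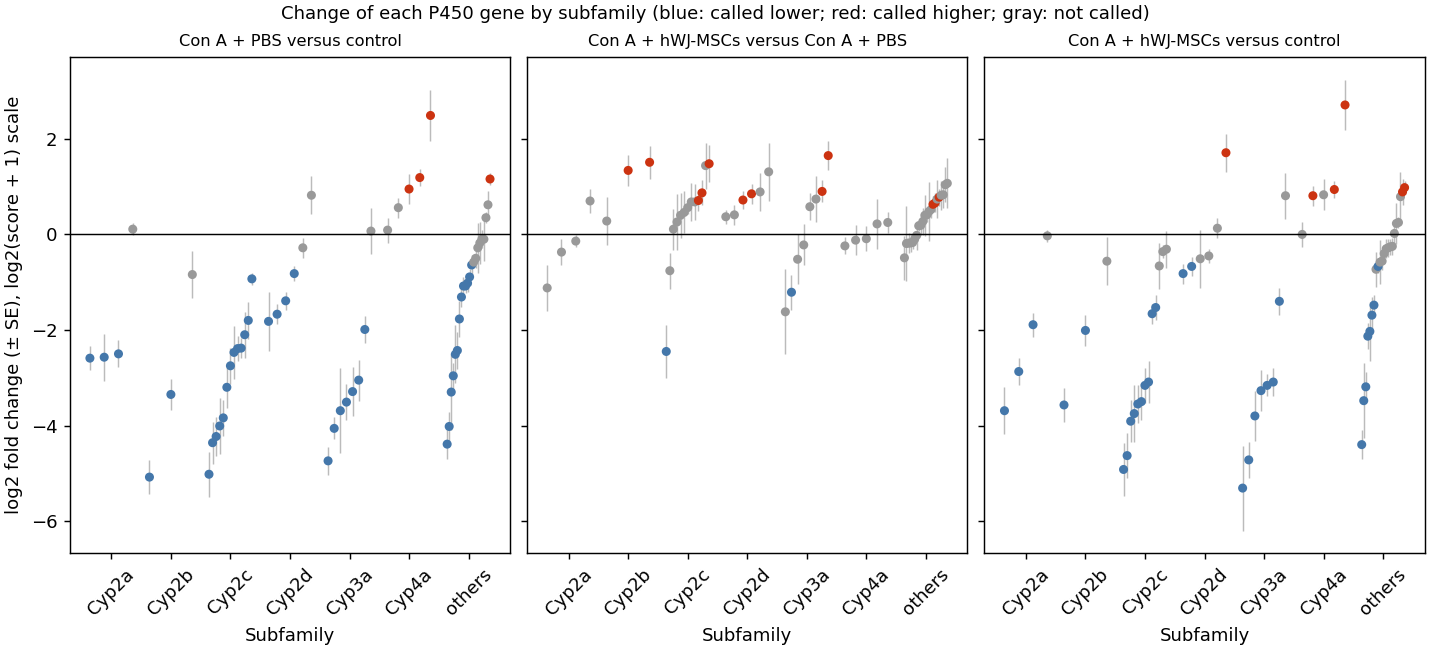
Each point is 1 P450 gene, placed by subfamily, with its log2 fold change on the vertical axis and the standard error as a bar, for the 3 comparisons. Blue points were called lower, red higher and gray neither. After Con A the Cyp2c points run from -5.02 to -0.93 and the Cyp4a points from 0.09 to 2.49.

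Among the Cyp2a, Cyp2b and Cyp2d genes the falls were uneven. Of the Cyp2a genes 3 of 4 were lower, led by Cyp2a22, which went from 2369, 1088, 1656 and 1146 in control to 208, 202, 228 and 384 (-2.59 ± 0.25, limma, adjusted p = 5.8e-06). With cells it scored 456, 427, 350 and 380, which overlapped Con A + PBS only through Con A + PBS 4. Cyp2b13 had the largest fall of any member, from 3198, 1907, 2552 and 3362 to 54, 130, 66 and 82, which was 33.8-fold (limma, adjusted p = 4.9e-07). Cyp2b10, the usual marker gene of Nr1i3 activity, had 634, 416, 103 and 336 in control, 184, 156, 284 and 108 in Con A + PBS, and 254, 106, 249 and 289 with cells. The 3 groups overlapped, and Cyp2b10 was not called in any comparison (-0.84 ± 0.50 after Con A, limma, adjusted p = 0.167). Of the 6 Cyp2d rows 4 were lower. The largest of these falls was that of the pseudogene Cyp2d37-ps, with 144, 101, 138 and 50 in control and 38, 42, 66 and 5 in Con A + PBS. These groups overlapped at 50 and 66 (-1.82 ± 0.61, limma, adjusted p = 0.023), and the call was lost without control 1, without control 3 and with only the 8 mice compared.

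Of the 22 other members 13 were lower and 1 higher, or 12 and 1 of 20 without Cyp2g1 and Cyp26b1, which are in the table through control scores alone. Cyp1a2, which oxidizes caffeine and is a target of Ahr, fell furthest. It scored 10944, 9400, 6748 and 8898 in control, 475, 278, 290 and 832 in Con A + PBS and 350, 590, 431 and 342 in Con A + hWJ-MSCs. Every mouse given Con A, with or without cells, lay more than 8-fold below every control (-4.39 ± 0.31 after Con A, limma, adjusted p = 6e-07). Cyp1a1, its partner under Ahr, was not analysed here. Cyp2f2, which oxidizes naphthalene and belongs to periportal hepatocytes, fell as did the pericentral Cyp1a2 and Cyp2e1. It went from 15086, 20871, 17650 and 20871 to 2264, 3124, 2936 and 1516 (-2.96 ± 0.27, limma, adjusted p = 3.7e-06), and with cells it scored 4036, 6938, 3914 and 2862. Cyp26a1, which breaks down retinoic acid, scored 1133, 546, 362 and 626 in control and 206, 182, 166 and 20 in Con A + PBS (-2.51 ± 0.61, limma, adjusted p = 0.00401). The value of 20 was that of Con A + PBS 4, and the groups did not overlap with or without it. Among the 5 Cyp4f genes, ω-hydroxylases of leukotrienes and fatty acids, 3 fell, and of the 3 Cyp2j epoxygenases 2 fell.

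The members called higher after Con A were 3 of the 5 Cyp4a genes and Cyp4f16. Cyp4a14, a fatty acid ω-hydroxylase and target of Ppara, had 7954, 6944, 6040 and 6536 in control and 11601, 15102, 17660 and 18931 in Con A + PBS. The groups did not overlap, and the level was 2.28-fold higher (limma, Benjamini-Hochberg adjusted p = 0.00019). With cells it stayed above every control, at 13230, 13948, 9867 and 16342. Cyp4a31 went from 154, 280, 238 and 190 to 386, 360, 343 and 576 (0.95 ± 0.32, limma, adjusted p = 0.0223). Its scores with cells were 514, 595, 189 and 340, which overlapped both other groups. Its call was lost without control 1, without control 4 and without Con A + PBS 4. Cyp4f16 had 125, 100, 86 and 116 in control, 214, 236, 254 and 246 in Con A + PBS and 239, 201, 218 and 186 with cells (1.16 ± 0.13 after Con A, limma, adjusted p = 2e-05). Cyp4a12a, the male-predominant ω-hydroxylase of arachidonic acid, had low scores in control, of 7, 10, 18 and 20. It scored 93, 138, 98 and 26 in Con A + PBS and 69, 197, 64 and 70 in Con A + hWJ-MSCs. All mice given Con A were above all controls, with Con A + PBS 4 the nearest to them. The log2 fold change after Con A of 2.49 ± 0.53 is given as a description, since the gene is in the table only through the mice where it is high. At these low scores the added 1 makes the fold change smaller than the ratio of scores. Cyp4a12a shares 25.6% of its 150-base windows with Cyp4a12b. Cyp4a10, another Ppara target, did not move by more than its error (0.09 ± 0.26, limma, adjusted p = 0.791), and Ppara itself gave 0.15 ± 0.33 (adjusted p = 0.722).

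**Figure D3:**
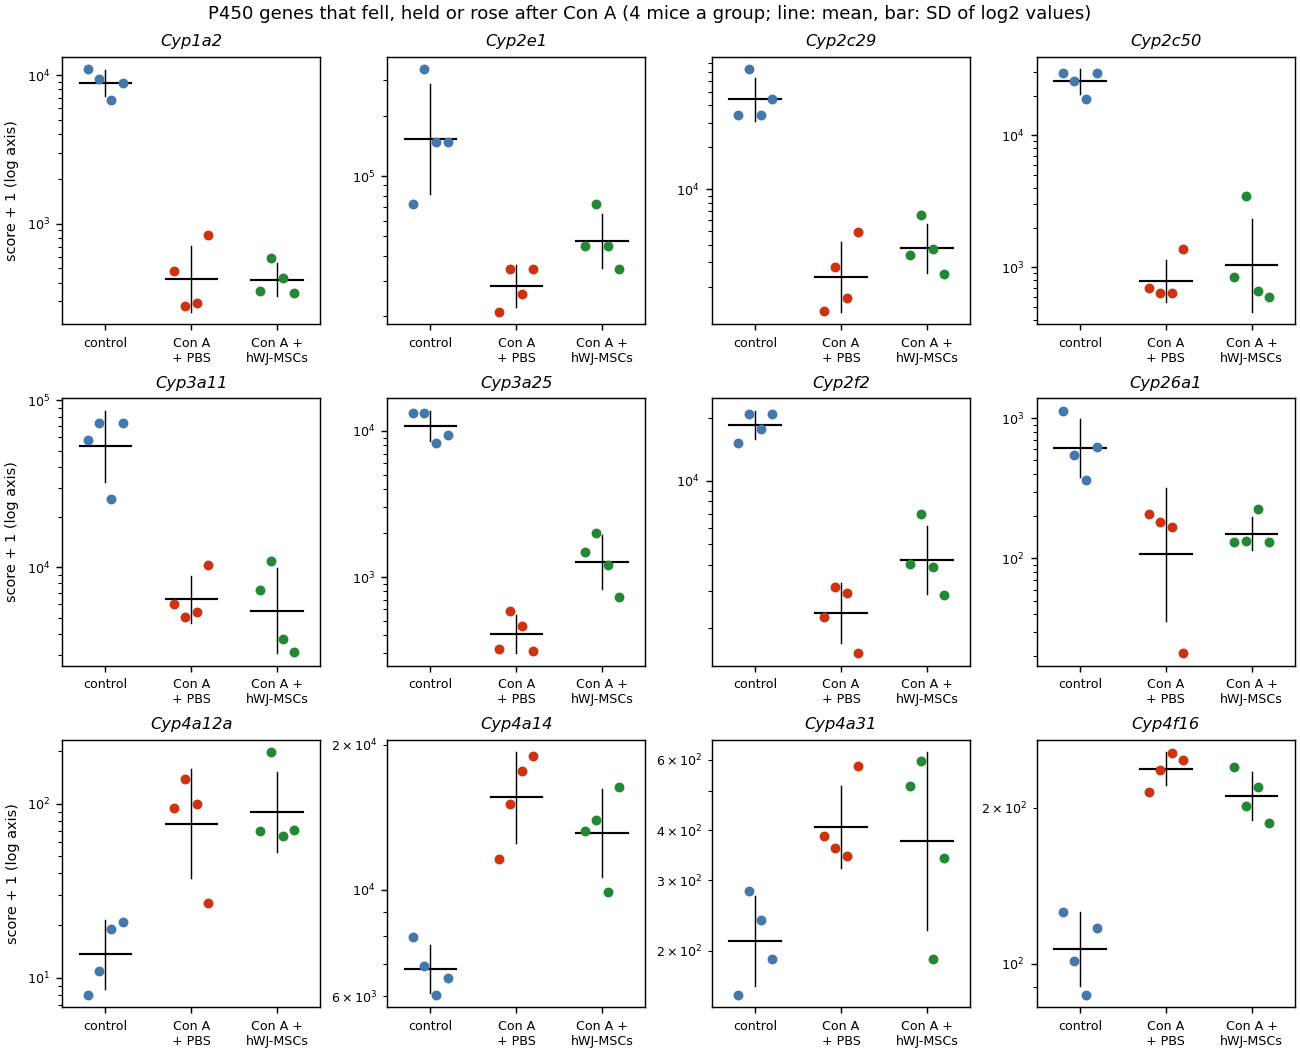
Scores plus 1 of 12 P450 genes on log axes with a separate range for each gene. Points are mice, 4 in each of control (blue), Con A + PBS (red) and Con A + hWJ-MSCs (green), lines are means and bars SDs of the log2 values. Control and Con A + PBS do not overlap in any of the 12, with the bottom row higher and the other rows lower after Con A.

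P450s known as female-biased were measured in all control livers, and nearly all of them fell. Of 11 female-biased P450s 10 were lower after Con A and 0 higher, beside 19.2% of all genes lower and 19.5% higher. Their summed score was 81691 to 187295 in control, 21991 to 25872 in Con A + PBS and 19838 to 28544 with cells. Cux2, a transcription factor gene of female liver, scored 382, 428, 681 and 654 in control, 2, 0, 4 and 2 in Con A + PBS and 2, 1, 1 and 1 with cells. Its difference was the largest of the regulators (-7.65 ± 0.57 after Con A on the log2 scale), and the gene is in the table through its control scores alone. No mouse given Con A scored above 4. Stat5b, which carries the growth hormone signal, was also lower (-0.94 ± 0.16, limma, adjusted p = 0.00029). No list of male-biased P450s was counted. Cyp2d9, a male-biased steroid hydroxylase, had 810, 657, 560 and 921 in control and 1488, 2269, 1629 and 490 in Con A + PBS, which was not called (0.82 ± 0.40, limma, adjusted p = 0.0951). With cells it had 2380, 3810, 2128 and 1649 and was called higher than control (1.71 ± 0.40, limma, adjusted p = 0.00469).

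Between the livers given cells and those given PBS, the comparison that asks what the cells changed, 12 members were called higher, 2 lower and 47 neither. Of all genes 4.20% were called higher and 4.38% lower. The median log2 fold change of the members was 0.41, beside 0.00 over all genes, and 42 of 61 were above 0. These calls rest on few mice: without Con A + PBS 1, Con A + hWJ-MSCs 2 or Con A + hWJ-MSCs 3 the numbers called higher and lower were 0 each by limma, and over all genes those fits called between 2 and 10 lower and between 4 and 8 higher. At an unadjusted p below 0.05, whatever the fold change, 22 members were higher and 3 lower with all mice, beside 18.0% of all genes higher and 16.6% lower. The 3 fits without 1 of those mice had 19 to 22 members higher and 2 to 4 lower, beside 13.7% to 14.8% of all genes higher and 12.7% to 13.9% lower. Without Con A + PBS 4 the calls were 4 higher and 0 lower, and without Con A + hWJ-MSCs 1 they were 2 and 2. With only the 8 mice compared 4 members were higher and 1 lower. Of the 12 fits that leave out 1 mouse, controls included, Cyp3a25 lost its call in 3, and Cyp2c70 and Cyp3a44 lost theirs in 9 each. The direction of each named member called here held in all alternatives tried. The groups did not overlap in 11 of the 61 members, which is 18.0% of them, beside 23.5% of all genes.

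The members called higher came from the Cyp2b (2), Cyp2c (3), Cyp2d (2) and Cyp3a (2) genes and 3 others. Cyp3a25 rose the most, to 1488, 2004, 1210 and 726 with cells from 322, 582, 458 and 310 without (1.65 ± 0.30, limma, Benjamini-Hochberg adjusted p = 0.0188). The groups did not overlap, and all mice given cells stayed below every control. The female-predominant Cyp2b13 had 341, 318, 212 and 112 with cells, of which the lowest fell among the Con A + PBS scores (1.51 ± 0.35, limma, adjusted p = 0.0255). Its neighbor Cyp2b9, also female-predominant, went from 8238, 6756, 6536 and 7132 in control to 454, 1470, 828 and 433 after Con A. It had 1856, 2444, 1683 and 1296 with cells, again with 1 mouse inside the Con A + PBS range (1.34 ± 0.33, limma, adjusted p = 0.0281). Cyp2c68 scored 12230, 12230, 15125 and 12230 in control, 2870, 6764, 4113 and 2380 in Con A + PBS and 12230, 16364, 13253 and 4386 with cells. So 3 of the 4 mice given cells scored no less than the lowest control and the other lay among the Con A + PBS mice (1.48 ± 0.39, limma, adjusted p = 0.0328). Cyp2c70, which makes the muricholic acids of mouse bile, had 16359, 23644, 23644 and 25834, then 3808, 5255, 3547 and 4568, then 6044, 6328, 10366 and 5923. The groups did not overlap (0.71 ± 0.21 with cells, limma, adjusted p = 0.045), but the call was also lost without a trend in eBayes and with only the 8 mice.

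Smaller rises, of less than 2-fold, were called in Cyp3a59, Cyp2d40, Cyp2j6, Cyp2d22 and Cyp4f13, and in the unnamed remainder. Cyp3a59 had 1242, 1230, 698 and 1137 in control, 47, 53, 68 and 86 in Con A + PBS and 130, 148, 100 and 96 with cells (0.90 ± 0.23, limma, adjusted p = 0.0317). Its Con A groups did not overlap, and every score with cells was below every control. Cyp2d40 had 2023, 2239, 2550 and 1974, then 700, 888, 810 and 435, then 1288, 1598, 1068 and 1068 (0.85 ± 0.21, limma, adjusted p = 0.0273). The epoxygenase Cyp2j6 had 2148, 1964, 1639 and 1910, then 884, 1120, 1088 and 717, then 1391, 1964, 1978 and 1231 (0.78 ± 0.18, limma, adjusted p = 0.0268). In both genes the 2 Con A groups were separate, and in Cyp2j6 the mice given cells overlapped the controls. Cyp2d22 had 4736, 3534, 3003 and 3912, then 1252, 1775, 1458 and 1288, then 2645, 3158, 2140 and 1736 (0.72 ± 0.19, limma, adjusted p = 0.0362). Cyp4f13 had 1418, 987, 1388 and 1192, then 598, 791, 791 and 526, then 1005, 1192, 1137 and 822 (0.63 ± 0.17, limma, adjusted p = 0.0378). In Cyp2d22, Cyp2c68, Cyp2b9 and Cyp2b13 the only overlap between the Con A groups was that of Con A + hWJ-MSCs 4 with Con A + PBS 2. Cyp2c38 and Cyp21a1, called with adjusted p of 0.0486 and 0.0494 (limma), lie just inside the threshold, and Cyp2c39 passed the adjusted p of limma at 0.027 with a fold change of 1.48, just under 1.5.

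Both members called lower with cells were female-biased. Cyp2c69 had 20917, 11618, 72783 and 18948 in control, 5256, 2556, 3091 and 8544 in Con A + PBS and 1639, 884, 478 and 580 with cells, so each group lay below the one before without overlap. The fall with cells was 5.45-fold (limma, adjusted p = 0.0253). Cyp3a44 had 2398, 2341, 5393 and 2002, then 258, 188, 352 and 206, then 167, 144, 56 and 89 (-1.21 ± 0.37 with cells, limma, adjusted p = 0.048). It too fell in steps without overlap, but the call between the Con A groups was also lost with the replicate block, without a trend in eBayes and with only the 8 mice. Over the 11 female-biased P450s 2 were higher and 2 lower with cells, with a median log2 fold change of -0.37, so these genes did not move as 1 group. Of the members with the highest control scores, Cyp2e1 (0.74 ± 0.39, limma, adjusted p = 0.191), Cyp3a11 (-0.22 ± 0.43, adjusted p = 0.741) and Cyp2c29 (0.68 ± 0.40, adjusted p = 0.243) were not called, and Cyp1a2 gave -0.02 ± 0.31 (adjusted p = 0.979).

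**Figure D4:**
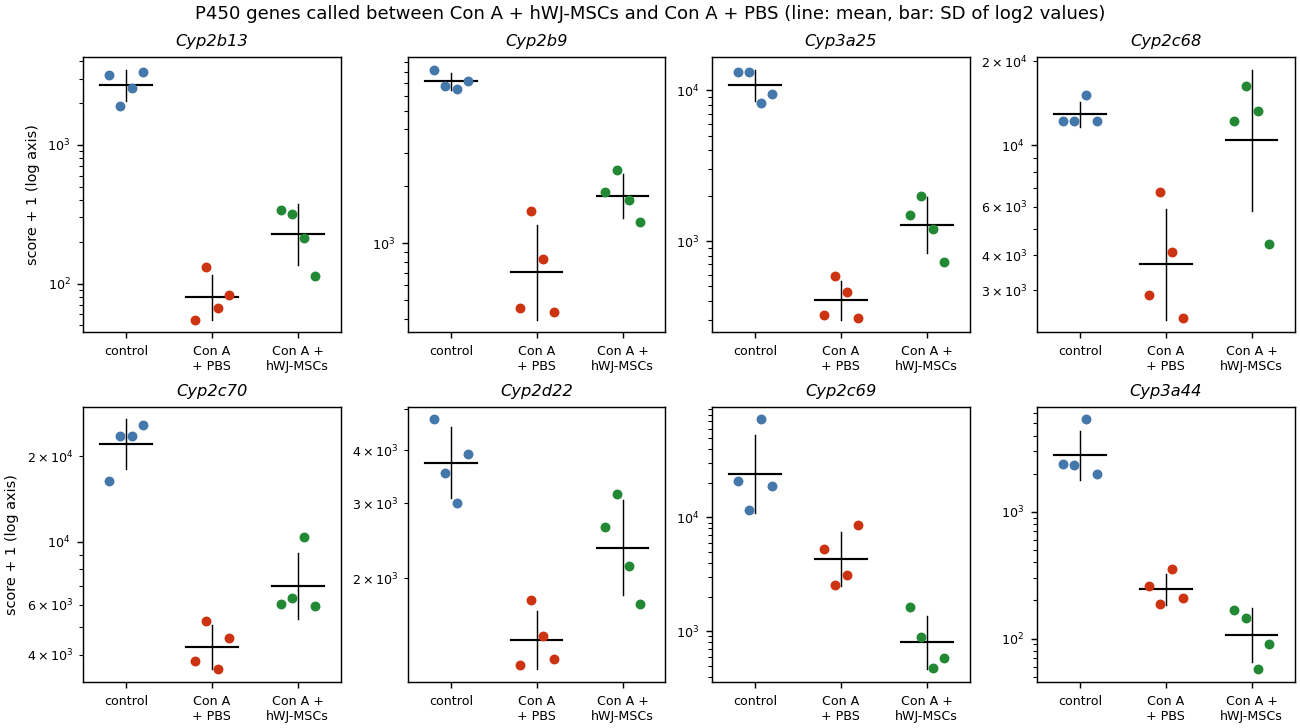
Scores plus 1 of 8 P450 genes called between the Con A groups, on log axes with a separate range for each gene. Points are mice, lines means and bars SDs of the log2 values. In the first 6 panels the green points (Con A + hWJ-MSCs) are higher than the red (Con A + PBS), in Cyp2c69 and Cyp3a44 they are lower, and in Cyp3a25, Cyp2c70, Cyp2c69 and Cyp3a44 the Con A groups do not overlap.

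Against control, the livers given cells still had 32 members called lower and 6 higher, with 23 neither, while 13.1% of all genes were lower and 13.6% higher. The 32 include Cyp2c55 and Cyp2g1, which are in the table through control scores alone. The 6 include Cyp4a12a, which is there only through the mice given Con A. The median log2 fold change was -0.73 for the members and 0.04 for all genes. This comparison shares its control mice with the first and its treated mice with the second, so the values of the 3 are given side by side and not as separate evidence. In the Cyp3a subfamily 7 of 8 were lower, in Cyp2c 10 of 13, in Cyp2a 3 of 4 and in Cyp2b 2 of 3. The lowest were Cyp3a41b (-5.31 ± 0.89), Cyp2c69 (-4.92 ± 0.55), Cyp3a44 (-4.72 ± 0.37), Cyp2c50 (-4.63 ± 0.47) and Cyp1a2 (-4.40 ± 0.31). Those higher than control were Cyp4a12a, Cyp4a14, Cyp4a32, Cyp4f16, Cyp2d9 and the steroid hydroxylase Cyp17a1. At the other end Cyp2c68 gave -0.31 ± 0.39 (limma, adjusted p = 0.546), Cyp2j6 -0.25 ± 0.18 (adjusted p = 0.303) and Cyp4f13 -0.26 ± 0.17 (adjusted p = 0.241).

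Genes that serve the P450s were measured too. Of 8 electron transfer partners 6 were lower after Con A, beside the 19.2% of all genes, and 2, Cyb5a and Fdxr, were higher with cells than without. Cyb5r3, the reductase of cytochrome b5, fell the furthest, from 12196, 12196, 7116 and 12196 to 1865, 2464, 1956 and 1714 (-2.43 ± 0.20, limma, adjusted p = 2e-06). Por, the reductase that every microsomal P450 depends on, did not follow after Con A. It scored 4291, 3596, 3810 and 5047 in control, 4938, 2291, 4663 and 8544 in Con A + PBS and 2830, 1964, 2107 and 2792 with cells, and it was not called in any comparison (0.15 ± 0.30 after Con A, limma, adjusted p = 0.693). Every mouse given cells lay below every control, just short of a call (-0.80 ± 0.30, limma, adjusted p = 0.0535). The Con A groups overlapped (-0.95 ± 0.30 with cells, limma, adjusted p = 0.0567).

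Of 9 genes of heme synthesis 4 were lower after Con A, beside 19.2% of all genes, with Alad at -1.14 ± 0.20 (limma, adjusted p = 0.00041). Alas1, the rate-limiting step, scored 2474, 1709, 2942 and 3494 in control, 3547, 2168, 4466 and 5925 in Con A + PBS and 2004, 1950, 1480 and 1875 with cells. It was called lower with cells (-1.06 ± 0.28, limma, adjusted p = 0.0352), while Alad was called higher (0.89 ± 0.20, adjusted p = 0.0251). Hmox1, the heme-degrading enzyme induced by stress, rose from 340, 500, 354 and 424 to 1737, 1051, 889 and 4557 (2.04 ± 0.40, limma, adjusted p = 0.00094), with the highest score in Con A + PBS 4. With cells it had 844, 672, 788 and 530, below every Con A + PBS mouse, and the difference was not called (-1.24 ± 0.40, adjusted p = 0.0552).

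Among 21 regulators 7 were lower, Cux2 among them, and 1 higher after Con A, beside 19.2% of all genes lower and 19.5% higher. Cux2 and Dbp are in the table through 1 side alone, and without them 6 of 19 were lower and 1 higher. Nr1i3 (CAR), the receptor behind Cyp2b induction, went from 3866, 4044, 3751 and 3751 to 1382, 2343, 2004 and 676 and stood at 4044, 3922, 2830 and 4113 with cells. It was lower after Con A (-1.41 ± 0.30, limma, adjusted p = 0.0017) and higher with cells than without (1.35 ± 0.30, adjusted p = 0.0252), where 3 of the 4 mice were at or above the lowest control. Nr1i2 (PXR), the receptor behind Cyp3a induction, fell from 1427, 1270, 1330 and 1342 to 811, 730, 908 and 770 (-0.74 ± 0.10, limma, adjusted p = 6.1e-05) and had 871, 958, 1041 and 1042 with cells, not called against Con A + PBS (0.28 ± 0.10, adjusted p = 0.0699). Ahr scored 1294, 1010, 1087 and 1209, then 880, 956, 758 and 830, then 930, 874, 674 and 906, a change after Con A below the fold change asked for (-0.42 ± 0.13, limma, adjusted p = 0.0127). Ppara had 345, 940, 654 and 1074, then 822, 588, 778 and 910, then 364, 361, 252 and 586, and was called lower only in Con A + hWJ-MSCs versus control (-0.89 ± 0.33, limma, adjusted p = 0.046). Like the P450 calls between the Con A groups, those of these 42 partner, heme and regulator genes (2 lower and 4 higher, limma) fell to 0 without Con A + PBS 1, Con A + hWJ-MSCs 2 or Con A + hWJ-MSCs 3, with 6 lower and 15 to 16 higher at an unadjusted p below 0.05, beside 12.7% to 13.9% of all genes lower and 13.7% to 14.8% higher.

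**Figure D5:**
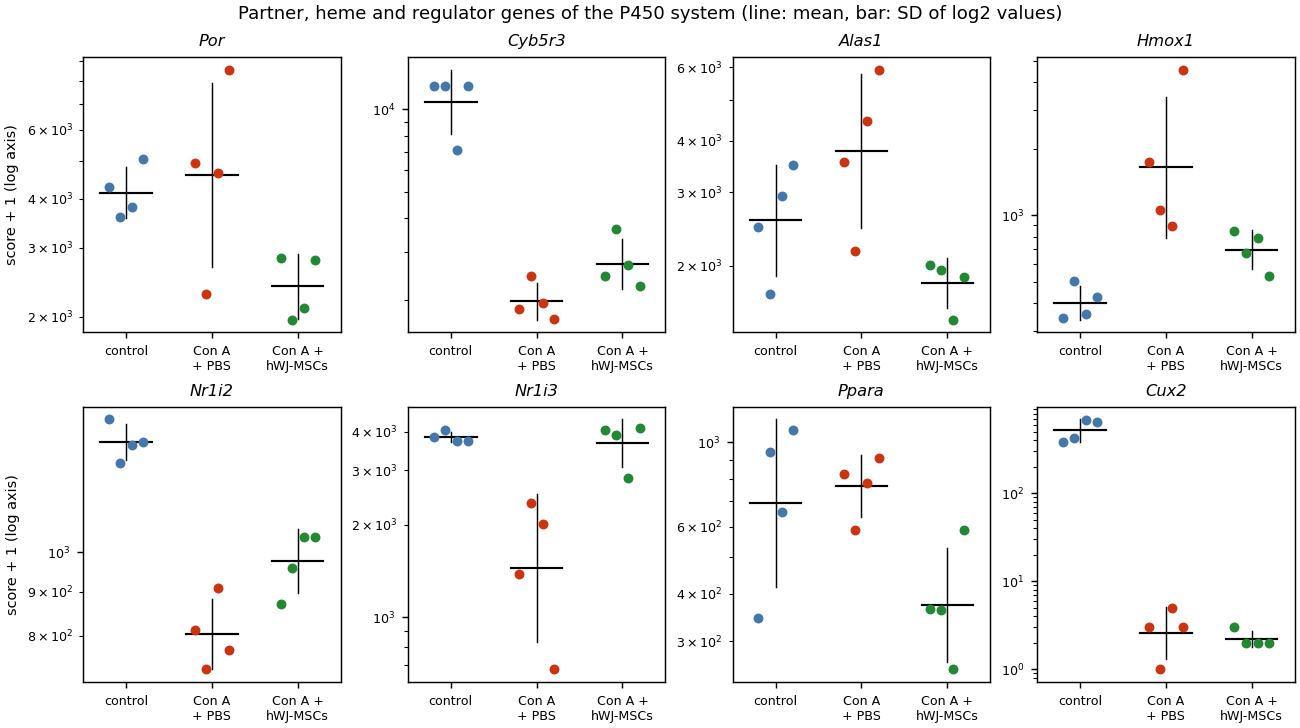
Scores plus 1 of 8 genes that serve or regulate the P450s, on log axes with a separate range for each gene. Points are mice, lines means and bars SDs of the log2 values. Cux2 falls from 382 to 681 in control to 4 or less after Con A, and Por overlaps between control and Con A + PBS.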

How the data were processed

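Poly(A) RNA of 12 mouse livers was sequenced as 150-bp paired-end reads. The submitters' processing notes name Bowtie2 2.2.1, RSEM 1.2.18 and mm10, without their role, and the study's methods name DESeq2. The authors deposited 1 whole-number score per gene and mouse, already normalized in a way not given in the sources used here. Score totals were 17649654 to 17657159 in all mice, 6 sets of 100 or more genes share the same score values, and the median GC content of these sets runs from 44.0% to 56.8%. Every gene reaches a score of 64 in at least 2 mice, so lower genes were left out. Count tests were therefore not used.

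The fit was of log2(score + 1) on all 12 mice, by limma 3.58.1 under R 4.3.3 (lmFit, eBayes with a trend), without covariates. Adding 1 understates the changes of low genes. Calls needed a Benjamini-Hochberg adjusted p below 0.05 over 11289 genes and a fold change above 1.5. The script was tested on simulated data. Summaries and plots used Python 3.11.15, pandas 2.3.3, numpy 2.4.6 and matplotlib 3.10.9. Shared windows are runs of 150 bases of a member's GENCODE M21 transcript found in a transcript of another gene. They reached 10% in 7 of 61 members, whose scores are uncertain. Of the 54 others 37 were lower and 3 higher after Con A.

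Groups and replicate numbers came from the labels. The members and lists were chosen with earlier results of these data known. Named with values were the 4 highest members in control, the largest called change of each subfamily, all members called higher after Con A, the 12 with the smallest p of those called with cells, and a few textbook genes of 1 inducer or zone. From the partner, heme and regulator lists these were Por, Alas1, Hmox1, Nr1i2, Nr1i3, Ahr, Ppara and the largest change of each list. Cyp2a12, Cyp2c38, Cyp2c39, Cyp2c40, Cyp2d9, Cyp3a13, Cyp3a41b, Cyp4a10, Cyp21a1, Cyp4a32, Cyp17a1, Cyb5a, Fdxr, Stat5b, Hnf4a, Lgr5, Stab2, Lyve1, Cdh5, Tiparp, Nr0b2, Cps1, Ttr, Dbp, Cyp2c55, Cyp2g1 and Cyp26b1 were named after their values were seen. Of Kupffer cell markers 5 of 5 were lower after Con A, of stellate cell markers 2 of 5, of endothelial markers 2 of 5 (1 higher), and of 3 cholangiocyte markers 1 was higher. Of these, 2 of the lowered Kupffer cell markers and 1 of the lowered endothelial markers are in the table through control scores alone. Of 4 heme degradation genes 1 was lower and 1 higher, while of all genes 19.2% were lower and 19.5% higher after Con A.

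Each fit was repeated with quantile normalization or median centring, with 10 as the pseudocount, without genes whose mean score was under 100, with eBayes but no trend, on only the 8 mice compared, with the replicate number as a block and without each mouse in turn. Calls were also made at a fold change above 2 and at the unadjusted p. Counts without genes let in by 1 side of the filter, and marker sums without genes at 1 score, were added after the data were seen.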

Additional observations from a re-analysis of the deposited data

Results flagged for a closer look

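In 8 of the 81 groups of 4 mice examined over the named P450s, 1 mouse lay far from the other 3 by Dixon's test on log2(score + 1), where chance alone marks about 1 in 20 groups. In Con A + PBS 4 these were Cyp2c50, with 1371 against 634 to 692 in the other mice of its group, and Cyp26a1, with 20 against 166 to 206. In Con A + hWJ-MSCs 2 they were Cyp4a12a, with 197 against 64 to 70, and Cyp2b10, with 106 against 249 to 289. In Con A + hWJ-MSCs 3 they were Cyp2c70, with 10366 against 5923 to 6328, and Cyp26a1, with 224 against 129 to 132. In control 3 they were Cyp3a59, with 698 against 1137 to 1242, and Cyp2c68, with 15125 while the other 3 controls shared the score 12230.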

How the results depend on the processing

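After Con A the number of P450s called lower ran from 41 to 43 and higher from 4 to 6 as each mouse was left out. Against control, livers given cells ran from 31 to 34 lower and from 5 to 9 higher, and 2 were higher at a fold change above 2. Between the Con A groups the number higher ran from 0 to 17 and the number lower from 0 to 2. There, only the 8 mice compared gave 4 higher and 1 lower, a fold change above 2 gave 4 higher, and eBayes without a trend gave 1 lower. Of the 42 partner, heme and regulator genes, those lower after Con A ran from 16 to 19 (7 at a fold change above 2) and those higher from 1 to 3 (1 with only the 8 mice). Between the Con A groups they ran from 0 to 6 lower and from 0 to 8 higher as mice were left out, with 6 lower at an unadjusted p and 2 higher at a fold change above 2. Against control with cells they ran from 7 to 11 lower and from 0 to 1 higher, with 2 lower at a fold change above 2 and 1 higher with only the 8 mice. The cause was not tested. Of 1695 values of the 27 named members under the alternatives 0 called changes changed sign, 97 calls were lost, 82 of them between the Con A groups, and 13 were gained.

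The replicate number was fitted as a block, though numbers belong to different mice. The deviations of same-numbered mice had correlations from -0.12 to 0.37, not over 0.1 in every pair of any comparison, so the fit without the block was kept, although those of numbers 2 and 4 between the Con A groups were 0.37 and 0.24. With the replicate block 16 P450s were higher and 1 lower between the Con A groups, and 5 partner, heme and regulator genes were lower, while over all genes 618 were lower and 679 higher there, against 495 and 474 without the block.

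Depth is unknown, and at the top of the table tied scores limit what Cyp2e1 can show.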

Other observations

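Some P450s outside the naming rule, chosen after their values were seen, held 1 mouse that differed widely from its group. The epoxygenase Cyp2j5 scored 13961, 20917, 16364 and 2318 in Con A + PBS, against 9880 to 13961 in control and 18948 to 25838 with cells. Cyp3a13 behaved alike, with 8246, 13958, 12228 and 1809 in Con A + PBS and 10968 to 12228 with cells. The low mouse was Con A + PBS 4 in both genes, which also had the highest Hmox1 (4557) and Tiparp (4044) and the lowest Nr0b2 (22) of its group. Neither P450 was called in any comparison. Cyp2c54 scored 374, 1672, 296 and 246 with cells against 328 to 352 in Con A + PBS, so that its rise was seen in Con A + hWJ-MSCs 2 and not in Con A + hWJ-MSCs 3 or 4. Cyp3a41b, which shares 82.7% of its 150-base windows with another transcript, scored 4108, 594, 8908 and 1168 in control, the widest of the Cyp3a genes there as a ratio of highest to lowest score.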
